A study of Mus musculus with 8 samples.

Results

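Growth-plate chondrocytes low in Prg4 and Col10a1 were chosen by thresholds within a single-cell survey of the mouse tibia, on the number of unique molecular identifiers (UMIs, each standing for a captured transcript molecule) per barcode. A member held at least 10 UMIs of Col2a1, at least 10 of Col9a1, Col9a2 and Col9a3 together, fewer than 5 of Col10a1 and Ihh together, and at most 1 of Prg4. These thresholds found 186 cells, or 4.17% of the 4460 barcodes with at least 1600 genes and at most 20% mitochondrial UMIs, among 12564 barcodes in all. The values of these 7 genes chose the cells and are given as a description only, and so is every ratio between classes that the thresholds set apart.

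All mice were 8 weeks old (P56) and untreated, and shared 4 alleles. MMP14 F/+ is 1 floxed allele of Mmp14, COL10A1cre a Cre driven by Col10a1 and so active from hypertrophic chondrocytes (HCs) onwards, R26-tdT a Cre-dependent tdTomato reporter at Rosa26, and Col1a1-2.3-GFP an osteoblast GFP transgene under a Col1a1 promoter fragment. Trabecular bone with part of the growth plate was digested after early, blood-rich fractions had been discarded, and cells of 3 mice were pooled for droplet sequencing. The 8 labelled samples belong to 1 group and their barcodes bear no mark of sample or mouse, so there are no replicates, no difference has a replicate check and no test was run. Levels are UMIs per 1000000 UMIs of a class (CPM), ranges in brackets are 95% intervals that cover counting error only, and genes are compared between classes as log2 ratios of CPM.

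The growth plate is the cartilage that lengthens a long bone. Round resting chondrocytes feed columns of dividing flat chondrocytes, which leave the cell cycle, become prehypertrophic and then hypertrophic, and switch from type II to type X collagen. Parathyroid hormone-related protein (PTHrP, gene Pthlh) from the resting end acts through its receptor Pth1r to delay that exit, while Indian hedgehog (Ihh) from prehypertrophic cells signals back through Ptch1 and Gli factors. Cartilage at the joint surface instead makes lubricin, the product of Prg4. Where in the plate a cell had lain was not measured.

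The members held 3799402 UMIs, between 4480 and 72053 per cell with a median of 17496, and a median of 3622.5 genes and 3.78% mitochondrial UMIs. Beside each threshold, 3 members held 10 to 19 UMIs of Col2a1 and 2 otherwise fitting barcodes held 5 to 9. For type IX collagen, 2 members held 10 to 19 UMIs and 1 barcode held 5 to 9, and for Col10a1 with Ihh, 3 members held 2 to 4 UMIs and 2 barcodes held 5 to 9. Prg4 was at 1 UMI in 17 members and at 2 to 4 UMIs in 3 barcodes left out. Col10a1 and Ihh were both at 0 in 171 members and Prg4 in 169. A further 6 barcodes met the 4 UMI thresholds with only 261 to 1349 genes and were left out.

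The nearest classes were 43 chondrocytes that met the collagen and Prg4 thresholds with at least 5 UMIs of Col10a1 and Ihh (median 32457 UMIs), here called Col10a1/Ihh chondrocytes, and 38 that met the collagen and Col10a1 thresholds with at least 2 UMIs of Prg4 (median 13404 UMIs), here called Prg4 chondrocytes. Another 16 passed both of those limits and were set against nothing. As a background for shares of cells, 1353 granulocyte barcodes were used, which hold Ptprc, at least 50 UMIs of 6 granule genes and fewer than 10 of Col2a1, with a median of 13927 UMIs. RNA of blood cells was present in the members. The 57 markers of neutrophils, monocytes, B, T and NK cells, erythroid cells and megakaryocytes summed to between 494 and 481231 CPM per member with a median of 1647, and exceeded 20000 CPM in 11 members, 7 Col10a1/Ihh and 5 Prg4 chondrocytes. Most of it was erythroid and neutrophil RNA, at 5987 and 5890 CPM over all members, beside 249 CPM of B cell, 63.4 of monocyte or macrophage, 20.8 of T or NK cell and 14.5 of megakaryocyte markers. Ptprc was seen in 30 members.

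The growth-plate chondrocyte label has 5 marker genes, and the 3 that the thresholds did not use were all seen in most members. Cnmd, which encodes chondromodulin, an inhibitor of vessel growth in cartilage, was seen in 185 of 186 members and Ucma, which encodes a matrix protein of unmineralised cartilage, in 174. Matn3, which encodes the cartilage matrilin-3, was seen in 171. Of the granulocyte barcodes, 3.1%, 1.03% and 1.4% held a UMI of Cnmd, Ucma and Matn3. These are not cartilage cells, so the shares cannot tell growth-plate from other cartilage, and ratios to the nearest chondrocyte classes are given below.

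The markers of other cells were low but not absent. The thresholds fixed the levels of Prg4, Col10a1 and Ihh, so these were left out of the sums. The other 5 articular markers (Cilp, Creb5, Erg, Abi3bp, Thbs4) summed to 89.8 CPM in the members, 7888 in Prg4 and 32.7 in Col10a1/Ihh chondrocytes. The other 4 hypertrophic markers (Mmp13, Ibsp, Panx3, Sp7) summed to 880 CPM in the members, with a median of 57.6 per cell and 55173 in the highest, to 7066 CPM in Col10a1/Ihh chondrocytes (median 4407) and to 8669 CPM in Prg4 chondrocytes (median 564). All of these genes were seen in members. Osteoblast markers summed to 2013 CPM, with Ifitm5 at 0 and the other 8 seen, and reached 60404 CPM in the highest member against a median of 556. Endothelial markers summed to 5.26 CPM with Cdh5 and Tek at 0, and marrow stroma markers to 15.8 CPM with Adipoq at 0. Fibroblast or tendon markers summed to 121 CPM, pericyte or smooth muscle markers to 77.4 CPM with Rgs5 at 0, and osteoclast markers to 71.1 CPM with 4 of 8 at 0. The part of this RNA in the results below was not tested, save where values without blood-rich barcodes are given.

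Against all other barcodes, the members were set apart by cartilage matrix genes. Of 9383 genes with enough UMIs, 1065 (11.4% of those compared) were at least 4-fold higher in members and 928 (9.89%) at least 4-fold lower, and the median log2 ratio over all genes was −0.09. All 8 of the cartilage collagen genes left once the rule's collagens were set aside were at least 4-fold higher, and so were 10 of 13 genes of aggrecan, link protein and sulfation, 13 of 17 matrilins and glycoproteins, 5 of 7 small leucine-rich proteoglycans, 12 of 20 transcription factors of the SOX9 network and 16 of 27 genes of collagen processing. None of these lists had a gene lower by that margin. Genes of S phase and of G2 and M phase had medians of −1.21 and −1.56 on the log2 scale, with 1 of 38 and 7 of 47 at least 4-fold lower and 0 higher. Of the other barcodes, 3248 held Ptprc. The counts were 410 genes higher and 605 lower when the reference was restricted to other barcodes without a Ptprc UMI.

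Among the matrix genes, Cnmd (chromosome 14, 79637690 to 79662170, GRCm38) ran from 0 to 7302 CPM per member with a median of 2560. Its summed level was 2731 CPM [2678 to 2784] against 57.2 in the other barcodes, a log2 ratio of 5.58 [5.52 to 5.63]. Matn3 (chromosome 12, 8947929 to 8972028) ran from 0 to 5923 CPM with a median of 2347, and its log2 ratio was 5.57 [5.51 to 5.64]. The sum of either gene did not rest on a few cells, since no member gave more than 1.99% of the Cnmd or 1.82% of the Matn3 UMIs.

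Acan, the gene of aggrecan, the large proteoglycan that holds water in cartilage, was seen in all 186 members, from 187 to 13516 CPM with a median of 5267, at a log2 ratio of 4.24 [4.21 to 4.28]. Hapln1, whose link protein fastens aggrecan to hyaluronan, was likewise in every member, at 4.04 [4.00 to 4.07]. Of the genes that sulfate the glycosaminoglycan chains some were higher and Chst3, a sulfotransferase, was not, at −1.95 [−2.47 to −1.48]. Chst11, a chondroitin sulfotransferase, stood at 755 CPM and 4.90 [4.81 to 5.00], and Papss2, which makes the sulfate donor, at 596 CPM and 4.75 [4.65 to 4.85]. The fibril collagens Col11a1 and Col11a2 were in all members at 6958 and 4018 CPM. Serpinh1, the chaperone of procollagen, stood at 2317 CPM and 4.16 [4.12 to 4.21], and Plod2, a lysyl hydroxylase of collagen, at 1131 CPM and 4.26 [4.19 to 4.33].

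Sox9 and Sox5, transcription factors of the chondrocyte program, were seen in nearly all members. Sox9, its master regulator, was seen in all 186 members at 46.7 to 6280 CPM with a median of 1112, and its log2 ratio was 3.63 [3.57 to 3.68]. Sox5, a partner of Sox9, was seen in 175 members, with a ratio of 4.07 [3.93 to 4.22]. Fgfr3, the receptor that restrains chondrocyte division, was seen in 167 members, with a ratio of 4.30 [4.14 to 4.46].

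The genes with the highest ratios were seen in fewer members. C1qtnf3 (chromosome 15, 10952332 to 10980150), which encodes the secreted protein CTRP3, led the ranking. It was seen in 132 members, from 0 to 4120 CPM with a median of 213, and in 36 of 4274 other barcodes. Its summed level of 457 CPM [435 to 479] against 1.32 gave a log2 ratio of 8.43 [8.09 to 8.80]. Next came Scube2, whose protein helps release hedgehog ligands, at 7.95 [6.93 to 9.19] in 78 members, then AC165271.1, Luzp2, Bpifb1, Bdkrb1, Cmtm5, Serpina1a, Pcp4 and the imprinted RNA H19, at log2 ratios of 7.17 to 7.88. The copies of Serpina1 are nearly identical, so that its reads may have been shared with them. At the other end stood genes of myeloid cells, Ifi207, Ldhc, Mmp8, Lilrb4a, Bcl2a1d, Ms4a4c, Osm, Wfdc17, Abca13 and Tnip3, each at 2.37 CPM or less in members.

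**Figure D1:**
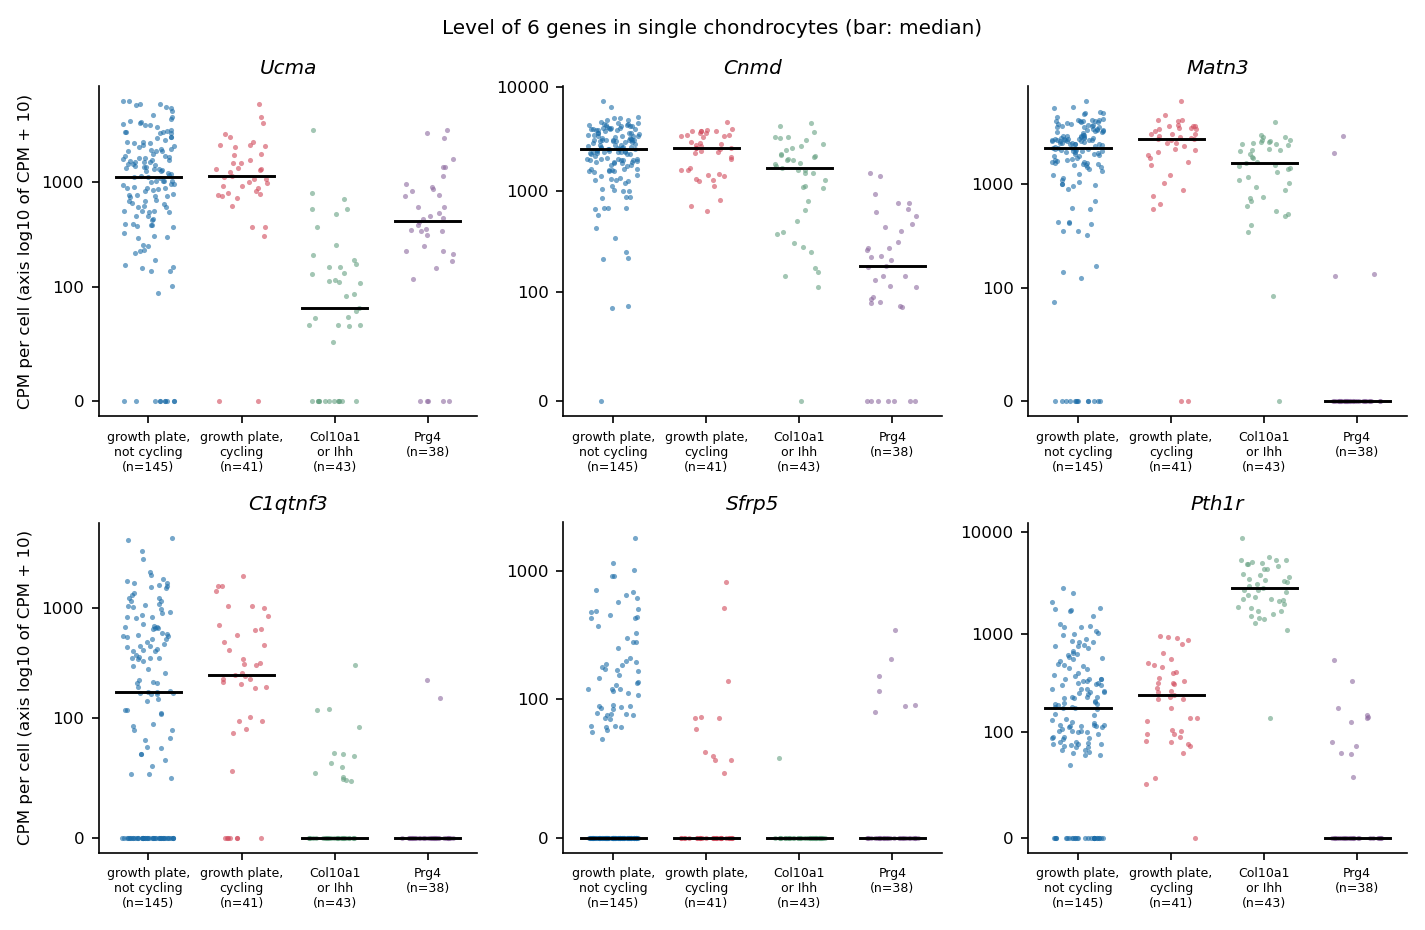
CPM per cell, on a log10 axis of CPM plus 10, of Ucma, Cnmd, Matn3, C1qtnf3, Sfrp5 and Pth1r in 145 other and 41 cycling members, 43 Col10a1/Ihh chondrocytes and 38 Prg4 chondrocytes. Each point is a cell and each bar the class median. Cnmd and Matn3 were high in most members, C1qtnf3 and Sfrp5 in some, and Pth1r was highest in the Col10a1/Ihh chondrocytes.

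The comparison with Col10a1/Ihh chondrocytes asked what the members lack or keep relative to cells that have begun hypertrophy. The members were higher in hedgehog-pathway genes and in some resting-zone genes, and lower in prehypertrophic genes. Genes of the cell cycle were higher in sum, though for G2 and M phase not in the median cell. Of 7341 genes compared, 1044 (14.2%) were at least 2-fold higher in members and 374 (5.09%) at least 2-fold lower, and the median log2 ratio was 0.18. The cartilage matrix differed less. Of 8 cartilage collagens, 2 (Col16a1 and Col12a1) were 2-fold higher and 0 lower, Acan stood at −0.34 [−0.38 to −0.31], and Epyc, a leucine-rich proteoglycan of the growth plate, at 0.06 [−0.10 to 0.23].

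Ucma had the highest ratio here among the 3 label markers that the thresholds did not use. In members it ran from 0 to 5486 CPM with a median of 1107, and in Col10a1/Ihh chondrocytes from 0 to 3004 CPM with a median of 61.6. The ranges overlapped, and the summed log2 ratio was 2.62 [2.46 to 2.78], beside 0.65 [0.59 to 0.71] for Cnmd and 0.48 [0.42 to 0.55] for Matn3. C1qtnf3 had a median of 0 CPM in Col10a1/Ihh chondrocytes and a log2 ratio of 4.19 [3.71 to 4.71]. Prelp, a leucine-rich anchor of collagen to membranes, was at 2.65 [2.48 to 2.82], and Chst11 at 1.68 [1.52 to 1.85].

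Other glycoproteins lay on the Col10a1/Ihh side. Matn1, which encodes matrilin-1, was at 55.3 CPM in members, where 43 cells held it, and at 653 CPM in Col10a1/Ihh chondrocytes, a log2 ratio of −3.56 [−3.79 to −3.35]. Chad and Comp, both collagen-binding proteins, were at −1.26 [−1.31 to −1.21] and −1.08 [−1.11 to −1.04]. The list of matrilins and glycoproteins thus split, with 4 of 18 genes 2-fold higher and 4 lower.

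In the list of PTHrP and hedgehog genes, 7 of 10 were at least 2-fold higher in members and 1, the receptor Pth1r, was lower. Hhip (chromosome 8, 79965851 to 80058006), which encodes a membrane protein that binds and dampens hedgehog ligands and is itself a hedgehog target, was seen in 138 members, from 0 to 1423 CPM with a median of 111. Only 3 UMIs were seen in 43 Col10a1/Ihh chondrocytes, for a log2 ratio of 6.27 [4.72 to 8.55]. Ptch1, the hedgehog receptor and another target, was at 1.62 [1.26 to 2.01] in 140 members. Gli1, the transcriptional effector, was seen in 44 members at 16.8 CPM and in 1 Col10a1/Ihh chondrocyte, a ratio of 4.60 [2.07 to 9.92]. Gli2 was seen in 43 members and in 0 of the 43 cells, at least 7.06-fold higher. By the rule, members held at most 4 UMIs of the ligand Ihh. In granulocyte barcodes the share with a UMI was 0.296% for Hhip, 1.77% for Ptch1 and 1.03% for Pth1r.

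Pthlh was sparse, with 61 UMIs in 24 members, or 16.1 CPM [12.3 to 20.6], of which 19.7% came from 1 cell. It was at 0 in Col10a1/Ihh chondrocytes, so that the members were at least 7.69-fold higher. Its receptor Pth1r (chromosome 9, 110722085 to 110747145) was seen in 158 members, from 0 to 2852 CPM with a median of 194. In Col10a1/Ihh chondrocytes every cell held it, from 139 to 8925 CPM with a median of 2822. The summed levels of 414 CPM [394 to 435] and 2994 CPM [2905 to 3085] gave a log2 ratio of −2.85 [−2.94 to −2.77], although the ranges overlapped.

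Of 11 resting-zone genes, 6 were at least 2-fold higher in members and 2, Cd200 and Foxa2, lower, and the list's median log2 ratio was 2.93. The Col10a1/Ihh chondrocytes are deep, and the summed resting-zone RNA, much of it Apoe, was lower in deeper members. In the 62 deepest members (median 30971 UMIs) the list summed to 1021 CPM with a median of 592 per cell, against 865 CPM and a median of 834 in Col10a1/Ihh chondrocytes, so that at like depth the sums were close. Single genes still differed there, with Apoe at 452 against 23.7 CPM and Sfrp5 at 36.7 against 0.696 CPM on the members' side, and Cd200 at 18.4 against 262 CPM on the other. Apoe, which encodes a lipid carrier protein, was seen in 159 members, from 0 to 16936 CPM with a median of 584, and in Col10a1/Ihh chondrocytes from 0 to 225 CPM with a median of 0. Its ratio was 5.84 [5.35 to 6.37], and 10.7% of granulocyte barcodes held a UMI of it. Sfrp5, a secreted Wnt antagonist, was seen in 75 members at 78.4 CPM and as 1 UMI in the Col10a1/Ihh chondrocytes, a ratio of 6.82 [4.33 to 12.13]. Spon1, which encodes an extracellular matrix protein, was seen in 63 members and in 0 of the 43 cells, at least 31.7-fold higher. Cxcl14, a chemokine that is not on the list, led the whole ranking, with 1031 UMIs in 110 members against 1 UMI, a ratio of 8.61 [6.13 to 13.91]. Scara3, Trabd2b and H19 were also among the 10 highest, and so were Prtn3 and Mpo, granule enzymes of neutrophil precursors. Of the 681 Mpo UMIs in members, 660 lay in 5 cycling cells, and the ratio of Mpo, 5.01 over all members, was −0.06 without members that held a Ptprc UMI and 4.52 without barcodes rich in blood-cell RNA. Without the latter, 6 of 11 resting-zone genes were higher as before.

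The members were lower in 11 of 16 prehypertrophic and hypertrophic genes and higher in 1, Pdlim4. Alpl, the phosphatase of mineralisation, stood at 172 CPM in members and 1444 in Col10a1/Ihh chondrocytes, a ratio of −3.07 [−3.20 to −2.94]. Mmp13, the collagenase of hypertrophic cartilage, was seen as 1 UMI in members and at 196 CPM in the other class, in 6 of 43 cells (−9.54 [−14.85 to −7.05]). Mef2c, a transcription factor of hypertrophy, was at −2.99 [−3.17 to −2.81]. Sp7, the osteoblast and hypertrophy factor osterix, did not separate the classes at this depth, with 31.3 and 27.8 CPM and a ratio of 0.17 [−0.36 to 0.73], and Runx2 was at −0.30. The 10 lowest genes by ratio, among those with no more than 50% of their UMIs in 1 cell, were Krtap17-1, Hpgd, Phex, Pla2g10, Aldh1a3, Slco2b1, Irx5, Wnk4, Bmp6 and Nrgn. Hpgd, which breaks down prostaglandins, held 5 UMIs in members against 438, a ratio of −7.86 [−9.49 to −6.62]. Krtap17-1 and Pla2g10 were at 0 in members, at least 245-fold and 115-fold lower. Cdkn1c, the cell-cycle inhibitor p57, was at 303 CPM against 2794, a ratio of −3.20 [−3.30 to −3.11].

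By summed UMIs, cell-cycle genes lay on the members' side, but most of those UMIs were in a minority of members. The G2 and M list had 13399 UMIs in members, of which 10370 lay in the 41 cycling members, defined below. Per cell its median was 1140 CPM in members and 1220 in Col10a1/Ihh chondrocytes, and that of the S-phase list 458 and 313 CPM. Summed over the 145 other members the lists stood at 1159 and 555 CPM, against 1671 and 493. Of 34 S-phase genes, 29 were at least 2-fold higher and 0 lower, with a median log2 ratio of 1.68, and of 37 genes of G2 and M phase, 24 were higher and 0 lower, with the same median. Ccnd1, which encodes cyclin D1, was seen in 138 members, from 0 to 1472 CPM with a median of 141, and in 14 of the 43 Col10a1/Ihh chondrocytes, a ratio of 3.09 [2.60 to 3.62].

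**Figure D2:**
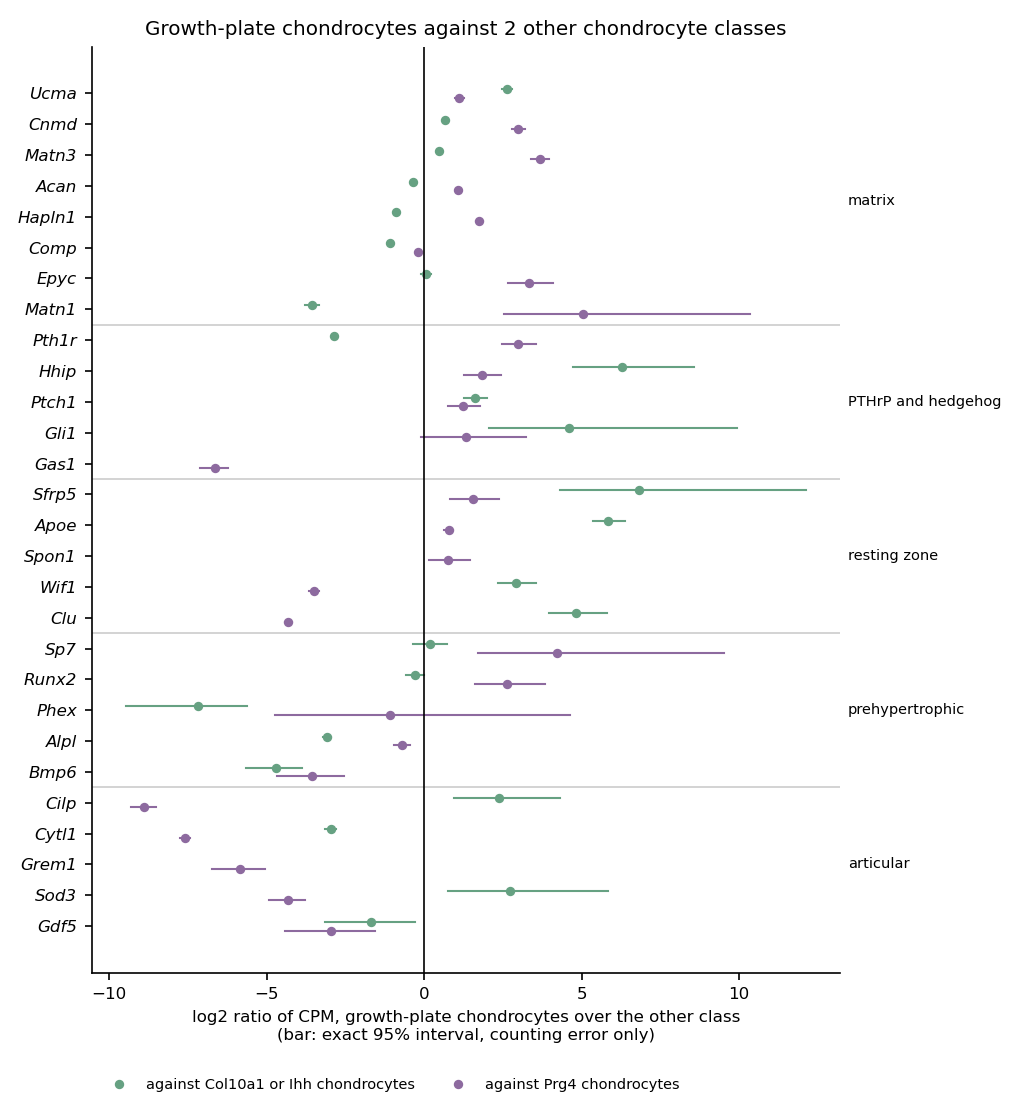
Log2 ratios of CPM in the members against 43 Col10a1/Ihh chondrocytes and against 38 Prg4 chondrocytes for matrix, PTHrP and hedgehog, resting-zone, prehypertrophic and articular genes. Bars are 95% intervals of counting error, and a point is left out where the other class held 0 UMIs. Pth1r lies at −2.85 and 2.99, on opposite sides of 0.

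The comparison with Prg4 chondrocytes asked how the members differ from cartilage cells that make the lubricant of the joint surface. The members held more matrilin-3, chondromodulin, Pth1r and cyclin D1 and far less of the articular genes Cilp and Cytl1. Of 6937 genes compared, 942 (13.6%) were at least 2-fold higher in members and 529 (7.63%) at least 2-fold lower, and the median log2 ratio was 0.12. Of 14 articular and superficial genes left once Prg4 was set aside, 9 were lower and 0 higher, with a median of −3.21. Of 18 matrilins and glycoproteins, 9 were higher and 3 lower.

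Cilp, a matrix protein of articular cartilage, held 55 UMIs in 26 members, 40% of them in 1 cell, and stood at 14.5 CPM against 6857 CPM, a log2 ratio of −8.89 [−9.30 to −8.50]. Cytl1, a secreted cytokine-like protein of cartilage, was at 91.1 against 17404 CPM, a ratio of −7.58 [−7.74 to −7.42]. Gas1, a hedgehog co-receptor on the resting-zone list, was at 12.1 against 1213 CPM (−6.65 [−7.11 to −6.22]), and Grem1, a BMP antagonist, at 3.68 against 211 CPM (−5.84 [−6.75 to −5.04]). Sbsn, Ntn4, Sod3, Clu, Cp and Lgr6 completed the 10 lowest, at −4.27 to −4.87. Clu stood at 4261 CPM in Prg4 chondrocytes, 215 CPM in members and 7.65 CPM in Col10a1/Ihh chondrocytes, and Wif1, a Wnt inhibitor, at 1542, 137 and 18.1 CPM. These 2 resting-zone genes were therefore higher in members than in one neighbour and lower than in the other. In the resting-zone list as a whole 2 of 11 genes were higher than in Prg4 chondrocytes (Pthlh and Sfrp5) and 5 lower.

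On the members' side, Matn3 was seen in 4 of 38 Prg4 chondrocytes, where its median was 0 CPM, and the ratio was 3.67 [3.40 to 3.96]. Cnmd was at 2.99 [2.79 to 3.20] and Ucma at 1.12 [0.97 to 1.27]. The highest ratios after the count floor were M1ap at 4.81 [3.76 to 6.12], C1qtnf3 at 4.76 [3.88 to 5.82] and Cthrc1, a secreted collagen-repeat protein, at 4.75 [3.19 to 7.03], followed by Slc13a5, a citrate transporter, Car12, a carbonic anhydrase, Panx3, a channel of maturing chondrocytes, Mpo, Tnni2, the cytokine Il17b and Bglap. The ratio of Mpo, whose UMIs lay nearly all in 5 cells, was −0.66 without members that held a Ptprc UMI. Bglap is nearly identical to Bglap2, and 22.7% of its UMIs came from 1 member. Pth1r, seen in 12 Prg4 chondrocytes at 52.3 CPM, was at 2.99 [2.47 to 3.55], and 6 of 10 PTHrP and hedgehog genes were higher and 0 lower. Ccnd1 was at 3.36 [2.55 to 4.32]. Of the SOX genes, Sox9 was at −0.51 [−0.60 to −0.41] and Sox5 at −0.15 [−0.40 to 0.11]. S-phase genes were higher in 17 of 34 and G2 and M genes in 13 of 37, with 0 and 1 lower. Without barcodes rich in blood-cell RNA these counts were 23 of 31 and 28 of 33, with 0 lower. Both lists rose with depth in members, and Prg4 chondrocytes are shallower. The S-phase sum was 773 CPM in Prg4 chondrocytes and 492, 862 and 1784 CPM in the shallowest, middle and deepest 62 members. The G2 and M sum was 2053 CPM against 1564, 2234 and 4897 CPM, and the part of depth was not tested.

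Within the members, the genes that varied most from cell to cell, once every cell had been thinned to 3000 UMIs, included several matrix genes and Apoe of the resting-zone list. Over 1806 genes the median ratio of variance to mean was 1.14. The 15 highest were Gm42418, Mgp, Cst3, Col2a1, Malat1, Sparc, Ppa1, Apoe, Timp3, Fn1, Fos, Ctgf, Mt1, Dcn and Col11a1. Gm42418 overlaps ribosomal RNA, so its counts are uncertain, and Col2a1 is a gene of the rule. Mgp, the inhibitor of cartilage mineralisation, ran from 0 to 86755 CPM with a median of 4351 and a ratio of variance to mean of 55.3. Fos, an early gene that dissociation of tissue is known to raise, ran from 0 to 18135 CPM with a median of 1186.

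Within the members, several resting-zone genes ran against Pth1r, others did not, and both moved with depth. The Spearman correlation of Pth1r with Apoe over the 186 cells was −0.52, the lowest of 2758 genes, followed by H2-D1, Meg3, Scara3, Cxcl14, Prnp, Osmr and Tgfbr2. The highest were Smpd3 at 0.60, a sphingomyelinase needed for mineralisation, Ccdc80, Col2a1, Cox4i2, Col9a3, Serpinh1, Fkbp11 and Smim5. The points are cells of 1 pool and both values of a cell share its depth, so these are descriptions. The correlation with UMIs per cell was −0.52 for Apoe and 0.37 for Pth1r. Within the 62 shallowest, 62 middle and 62 deepest members the correlation of Apoe with Pth1r was −0.35, −0.35 and −0.57. Sfrp5, Spon1, Wif1 and Clu were at −0.43, −0.37, −0.32 and −0.28 with Pth1r over all members. Fgfr3, also on the resting-zone list, was at 0.29, and Cd200 at 0.21, with 0.29, −0.24 and 0.56 in the shallowest, middle and deepest members. The sum of the list was at −0.42 over all members and at −0.38, −0.23 and −0.05 in the same sets, so that in the deepest members it hardly followed Pth1r.

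The levels followed the same order. The 62 shallowest members held 4480 to 14497 UMIs, the middle 62 held 14526 to 21961 and the deepest 62 held 22243 to 72053. Apoe stood at 3616, 1604 and 452 CPM in these sets, and Sfrp5 at 210, 73.4 and 36.7 CPM. The 14 resting-zone genes together stood at 6002, 2472 and 1021 CPM, and Apoe was the larger part in the shallowest and middle sets. Over all members the correlation of the sum with Apoe was 0.88. With UMIs per cell, Sfrp5, Spon1, Wif1 and Clu were at −0.40, −0.44, −0.43 and −0.38. Pthlh, Cd200 and Nt5e of the same list were at 0.002, −0.07 and −0.10. Pth1r ran the other way, at 246, 253 and 560 CPM, while Ucma, at 1203, 1791 and 1336 CPM, did not follow depth. Cst3, a protease inhibitor secreted by many cells, was also higher in shallower cells, at 12405, 3916 and 1988 CPM. The part of depth in the contrast was not tested beyond these values.

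Ucma kept other company. The genes most like it over the members were Loxl2 at 0.50, a lysyl oxidase of collagen, Matn3 at 0.48 and Ccnd1 at 0.48, then Rps4x, C1qtnf3, Rps3a1, Rpl39 and Bgn. In the shallowest, middle and deepest 62 members Matn3 was at 0.69, 0.45 and 0.16 with Ucma, and C1qtnf3 at 0.58, 0.32 and 0.36. The least like Ucma were Itm2b at −0.41, Sdcbp, Tgfb1, Raph1, Fxyd1, Gsn, Omd and Rnf19b. Its correlation with UMIs per cell was 0.14 and with Pth1r −0.05, or 0.15, −0.07 and −0.43 in the shallowest, middle and deepest 62 members. The prehypertrophic and hypertrophic list, summed over the 18 genes left without Col10a1 and Ihh, was at −0.50 with Ucma and 0.38 with Pth1r, although Pth1r is itself on that list.

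**Figure D3:**
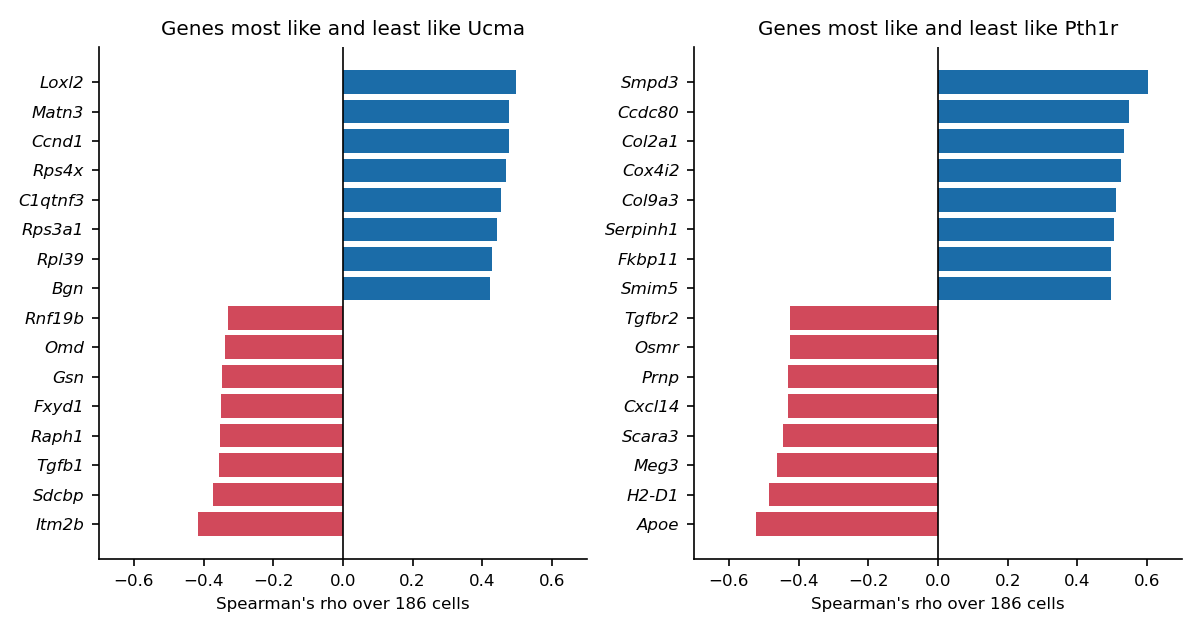
Spearman correlation over 186 members of the 8 most and 8 least similar genes with Ucma (left) and with Pth1r (right), out of 2758 genes seen in at least 50% of members. The values run from −0.41 to 0.50 for Ucma and from −0.52 to 0.60 for Pth1r.

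Cycling members were those with 2 or more of Top2a, Mki67 and Birc5 seen. They numbered 41 of 186, or 22.0% [16.3% to 28.7%, exact Clopper-Pearson]. No UMI of these 3 genes was seen in 109 members, a single gene in 36, 2 genes in 7 and all 3 in 34, so that 36 members lay 1 gene below the limit and 7 at it. The call depends on depth. Cycling members had a median of 28505 UMIs and the others 16533, the share was 6.45%, 16.1% and 43.5% in the shallowest, middle and deepest 62 members, and it was 9.85% [5.84% to 14.9%] after thinning every cell to 3000 UMIs. On the same terms, 3 of 43 Col10a1/Ihh chondrocytes were cycling (6.98%, and 4.77% thinned), and 4 of 38 Prg4 chondrocytes (10.5%, and 3.84% thinned). The thinned intervals of the 3 classes overlapped.

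Of 6431 genes compared, 484 (7.53%) were at least 2-fold higher in cycling than in other members and 297 (4.62%) at least 2-fold lower, and the median log2 ratio was 0.10. The 3 genes of the rule aside, 32 of 34 S-phase genes and 34 of 34 genes of G2 and M phase were higher, with medians of 2.61 and 3.63. Summed over 38 genes, the S-phase level per cell ran from 183 to 6408 CPM with a median of 2967 in cycling members, and from 0 to 3530 CPM with a median of 366 in the others. For the 51 genes of G2 and M phase the medians were 7859 and 893 CPM. Both ranges overlapped.

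Single genes showed the split more sharply. Pclaf, a PCNA-binding factor of DNA replication, was seen in 33 of 41 cycling and 7 of 145 other members, at 235 against 2.68 CPM, a log2 ratio of 6.46 [5.40 to 7.79]. Hmmr, a spindle protein, was at 6.45 [4.87 to 8.75], Rrm2, a subunit of ribonucleotide reductase, at 5.93 [4.67 to 7.57], Cdca8, a subunit of the chromosomal passenger complex, at 5.70 [4.54 to 7.17], and Cdk1, the mitotic kinase, at 4.49 [3.63 to 5.48]. Esco2, a cohesin acetyltransferase, was seen in 24 cycling and 0 other members, at least 66.9-fold higher. Pbk, Ccna2, Hist1h3c, Prtn3 and Mpo completed the 10 highest. Hist1h3c has near-identical histone copies. Precursors of blood cells divide too, and 54.2% of the granulocyte barcodes held Pclaf. Blood-cell RNA lay more in the cycling members, as 7 of 41 and 4 of 145 others exceeded 20000 CPM of blood markers, and the neutrophil markers summed to 11586 and 3307 CPM. Without those barcodes 29 of 30 S-phase and 33 of 33 G2 and M genes were higher. However, the barcodes left out held only 179 of the 660 Mpo UMIs of cycling members. Without members that held a Ptprc UMI, Mpo, at 6.12 over all members, was at −0.98. In that setting 361 genes were higher in cycling members, 284 of them among the 484 above, and the genes of the phase lists were not counted.

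**Figure D4:**
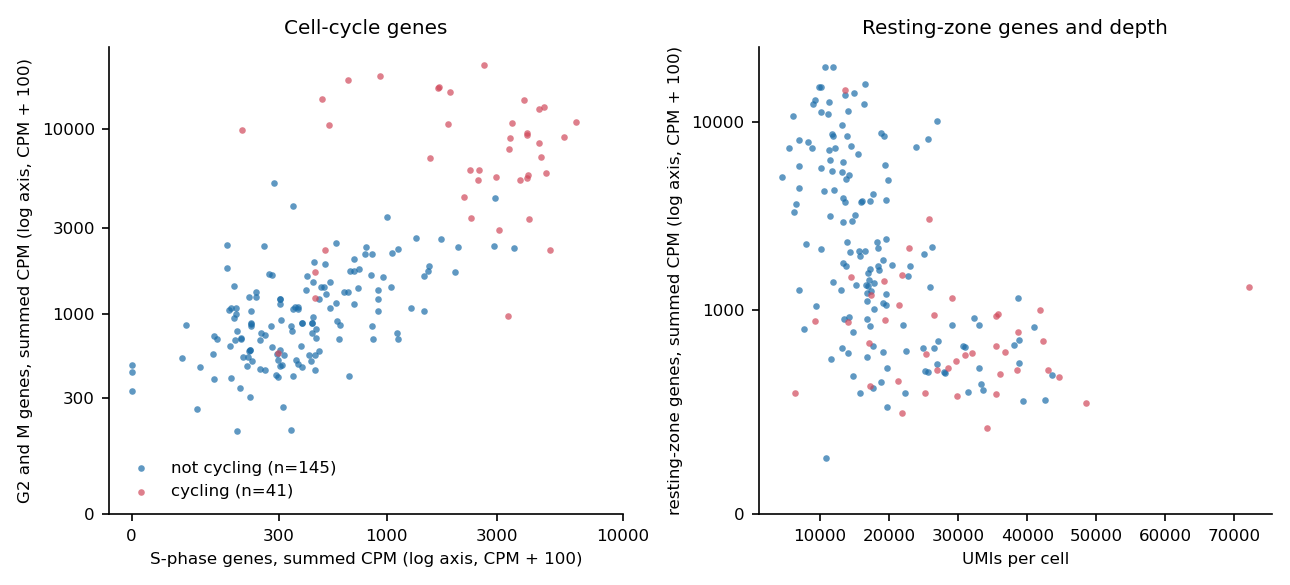
Left, summed CPM of 38 S-phase genes against 51 genes of G2 and M phase in each of 41 cycling and 145 other members. Right, summed CPM of the 14 resting-zone genes against UMIs per cell, both for the same members. Cycling members lie high in both cycle lists, and the resting-zone sum, much of it Apoe, is lower in deeper cells (Spearman −0.61).

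The promoters of cell-cycle genes are shown because those genes were higher together in the cycling members. The 250 bases before the start of transcription were searched for 6 of the 10 leading genes, those with a window. CCAAT was in 4 of the 6 and TTTGAA in 0, and the 4 are printed because they hold CCAAT, while the other two held neither motif. Cdk1 is not among the 10 and was added because its window held both motifs. Many genes of G2 and M phase are known to be bound by NF-Y at CCAAT boxes and by the DREAM complex at a downstream element, TTTGAA. Windows are from RefSeq on GRCm38.p6, written 5′ to 3′ on the strand of the gene, in lower case with CCAAT and TTTGAA, on either strand (ATTGG and TTCAAA), in capitals. They are Pclaf (chr9:65890073-65890322, plus strand), Hmmr (chr11:40733438-40733687, minus), Rrm2 (chr12:24708004-24708253, plus), Cdca8 (chr4:124936918-124937167, minus) and Cdk1 (chr10:69352913-69353162, minus).
Pclaf: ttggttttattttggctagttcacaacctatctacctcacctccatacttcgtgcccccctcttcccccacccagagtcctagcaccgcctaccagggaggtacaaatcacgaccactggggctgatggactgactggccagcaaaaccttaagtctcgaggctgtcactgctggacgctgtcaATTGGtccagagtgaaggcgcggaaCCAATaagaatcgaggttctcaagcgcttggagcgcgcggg
Hmmr: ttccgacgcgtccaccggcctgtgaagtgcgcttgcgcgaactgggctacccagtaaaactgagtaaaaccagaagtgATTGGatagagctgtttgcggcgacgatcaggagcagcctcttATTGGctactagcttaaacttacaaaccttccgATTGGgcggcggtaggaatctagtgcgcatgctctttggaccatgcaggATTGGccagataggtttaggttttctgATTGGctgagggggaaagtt
Rrm2: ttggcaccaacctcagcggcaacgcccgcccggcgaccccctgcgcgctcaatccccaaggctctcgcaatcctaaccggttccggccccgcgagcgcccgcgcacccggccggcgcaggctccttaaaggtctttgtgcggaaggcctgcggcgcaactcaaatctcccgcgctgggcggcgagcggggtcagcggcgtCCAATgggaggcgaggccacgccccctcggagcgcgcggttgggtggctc
Cdca8: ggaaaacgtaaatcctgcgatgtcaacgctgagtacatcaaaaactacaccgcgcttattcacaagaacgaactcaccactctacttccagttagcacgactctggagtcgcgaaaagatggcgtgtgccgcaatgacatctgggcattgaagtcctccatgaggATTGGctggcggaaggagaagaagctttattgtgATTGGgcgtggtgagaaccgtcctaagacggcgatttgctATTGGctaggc
Cdk1: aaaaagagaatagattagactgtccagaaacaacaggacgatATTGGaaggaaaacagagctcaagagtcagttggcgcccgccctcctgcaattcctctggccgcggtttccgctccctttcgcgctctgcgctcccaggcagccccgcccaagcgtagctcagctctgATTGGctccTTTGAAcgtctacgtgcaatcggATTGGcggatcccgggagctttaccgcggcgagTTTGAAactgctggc
The Pclaf window held 2 CCAAT boxes, the nearest beginning 41 bases before the start, and those of Hmmr, Rrm2, Cdca8 and Cdk1 held 5, 1, 3 and 3. The Cdk1 window also held 2 copies of TTTGAA, the nearest 15 bases before the start. Of the 28 G2 and M genes higher in cycling members that had a window, 24 (85.7%) held CCAAT, 13 (46.4%) held TTTGAA and 12 (42.9%) held both. Of the 26 S-phase genes with a window, 19 (73.1%) held CCAAT and 4 (15.4%) TTTGAA. Over windows of the same length of 27025 genes, 37.5% held CCAAT, 18.3% TTTGAA and 6.45% both. A match describes the letters and shows no binding, and windows differ in base composition.

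The matrix lists differed in how far they separated cycling from other members. Of the cartilage collagens, the genes of aggrecan and sulfation and those of collagen processing, 0 of 8, 0 of 12 and 0 of 27 were 2-fold higher or lower, with medians of −0.30, −0.33 and −0.19. Of the matrilins and glycoproteins 5 of 18 were lower (Cilp2, Matn1, Cytl1, Thbs1 and Fn1) and 0 higher, and of the small leucine-rich proteoglycans 3 of 7 were lower (Lum, Dcn and Omd) and 0 higher. Among members of at least 20000 UMIs, 2 of 8 cartilage collagens were lower, with a median of −0.73, and so were 0 of 12 genes of aggrecan and sulfation, 2 of 26 of collagen processing, 3 of 18 matrilins and glycoproteins and 1 of 7 leucine-rich proteoglycans, with 0 higher in these lists. At that depth 399 of all genes compared were higher and 160 lower, but their shares were not counted, so the lists are not set against all genes. Over all members, Ucma stood at −0.12 [−0.20 to −0.03], Cnmd at −0.15 [−0.22 to −0.09], Matn3 at 0.06 [−0.01 to 0.12] and C1qtnf3 at −0.10 [−0.25 to 0.05]. Ccnd1 was at −0.09 [−0.31 to 0.14], so that cyclin D1 was about as high in members outside the cycling set. Cdkn1c, the inhibitor p57, was lower in cycling members, at 88.6 against 400 CPM, a ratio of −2.18 [−2.48 to −1.89]. The lowest by ratio were Ptgs2, Mustn1, Bglap2, Cryab, Igf1, Steap4, Pappa, Lrrc15, Pdpn and Gprc5a. Each of them was seen in 8 or fewer of the 41 cycling and 56 or fewer of the 145 other members. Igf1, the growth factor, was seen in 4 cycling and 40 other members, at 8.44 against 85.3 CPM (−3.34 [−4.42 to −2.43]).

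The resting-zone list was lower in cycling members, and the count moved with depth. Of 10 genes, 8 were at least 2-fold lower and 0 higher, with a median of −1.98, and without barcodes rich in blood-cell RNA the count was again 8 of 10. Among members of at least 20000 UMIs, 31 cycling (median 31976 UMIs) and 37 other (median 27932), it was 2 of 7, with a median of −0.69. At that depth 399 of all genes compared were higher and 160 lower, and their shares were not counted. Apoe went from −2.07 [−2.20 to −1.93] over all members to −0.94 [−1.14 to −0.74] among the deep ones, Sfrp5 from −1.39 [−1.88 to −0.92] to −0.30 [−0.98 to 0.37], and Cxcl14, which is not on the list, from −1.77 [−2.06 to −1.49] to −0.05 [−0.49 to 0.39]. Other genes of the list stayed lower among the deep members. Nt5e, an ectonucleotidase, was at −1.30 [−1.72 to −0.90] and Itgav, an integrin subunit, at −1.38 [−2.02 to −0.77], and these were the 2 counted. Itgav was under 2-fold over all members, at −0.83 [−1.33 to −0.36], so that only Nt5e was also among the 8. Spon1 at −1.66 [−3.01 to −0.48], Cd200 at −3.41 [−5.76 to −1.74] and Pthlh at −2.23 [−4.66 to −0.41] had under 50 UMIs in these cells and were not counted. In the same deep members 29 of 30 S-phase and 32 of 32 G2 and M genes were still higher.

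Prehypertrophic genes behaved otherwise. Over all members 6 of 14 were at least 2-fold lower in cycling cells and 0 higher, beside 4.62% of all genes compared. Among deep members 8 of 12 were lower, with a median of −1.51, and the share over all genes was not counted there. Pth1r went from −0.67 [−0.85 to −0.50] to −1.42 [−1.61 to −1.23], with 290 CPM in deep cycling and 776 in deep other members. Ucma was at −0.09 [−0.20 to 0.01] in the same cells. The floor did not match the sets for depth, since the cycling members above it were still the deeper ones by their medians, and the part of the remaining gap was not tested. The 4 hypertrophic markers summed to 365 CPM in cycling and 1114 in other members over all depths, but the medians per cell were close, at 56.4 and 58.1 CPM, and the highest cell of each set reached 13283 and 55173 CPM.

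**Figure D5:**
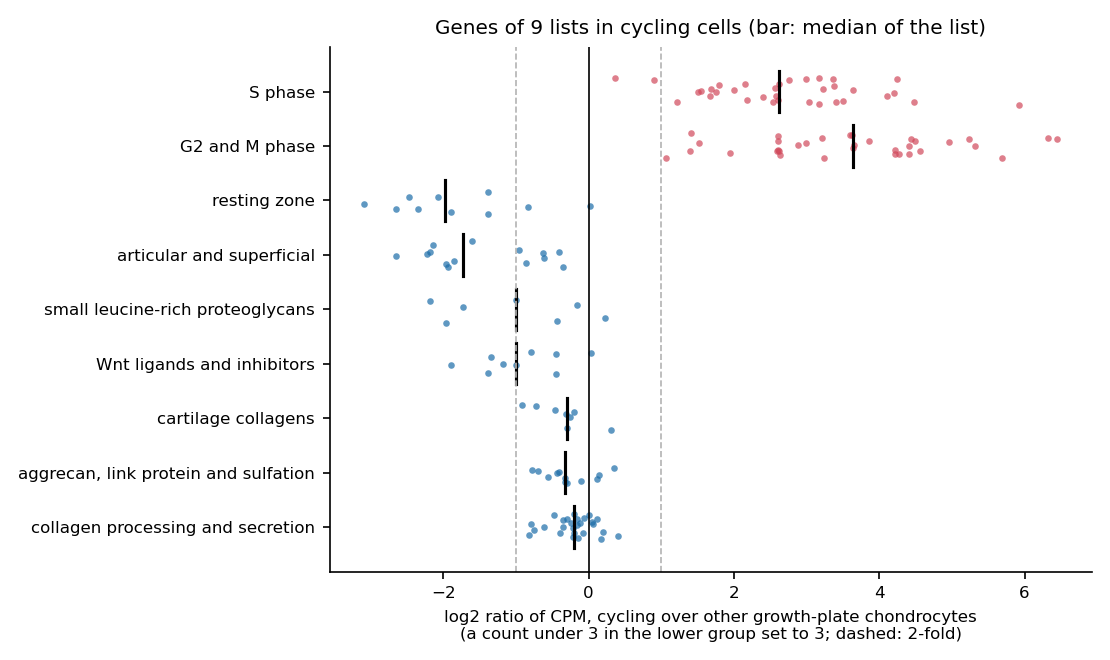
Log2 ratios of CPM in 41 cycling against 145 other members for the genes of 9 lists, each point a gene, with counts under 3 in the lower group set to 3. S-phase and G2 and M genes lie above 0, resting-zone genes mostly below, and cartilage collagens near it.

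The study asked about the protease MMP14 and the PTH receptor, and both transcripts were seen in members. Mmp14 (chromosome 14, 54431612 to 54445364) was seen in 109 of 186 members, from 0 to 634 CPM with a median of 49.8, and in 1.11% of granulocyte barcodes. Its level of 68.4 CPM [60.4 to 77.3] was above that in Col10a1/Ihh chondrocytes, 33.4 CPM [24.6 to 44.3], with a log2 ratio of 1.04 [0.59 to 1.51], and above that in Prg4 chondrocytes, 13.5 CPM [5.83 to 26.6], with a ratio of 2.34 [1.34 to 3.57]. Against all other barcodes it was 1.88 [1.68 to 2.08], and 0.70 against those without Ptprc. Every mouse carried 1 floxed allele, which Cre would delete in HCs and their descendants, and the sources used here do not say where the counted 3′ tags lie relative to the floxed exons. Cycling members were somewhat higher, at 0.51 [0.14 to 0.88] over all and 0.91 [0.38 to 1.44] among deep members.

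Pth1r against all other barcodes was at 2.12 [2.04 to 2.20], and at 0.50 against those without Ptprc. Both genes were seen together in 99 members (53.2% [45.8% to 60.6%]), Mmp14 alone in 10, Pth1r alone in 59 and neither in 18. Both were seen in 20 of 43 Col10a1/Ihh chondrocytes, 1 of 38 Prg4 chondrocytes and 1 of 1353 granulocyte barcodes. The members were thus the class with the higher Mmp14 and the Col10a1/Ihh chondrocytes that with the higher Pth1r.

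The reporters were near background. WPRE, the viral element at the end of the tdTomato transcript, exceeded 14 UMIs, the limit used to call descent from HCs, in 1 of 186 members (0.538% [0.0136% to 2.96%]). That cell held 16 UMIs and the next 3. In Col10a1/Ihh chondrocytes 21 of 43 exceeded it (48.8%), and in granulocyte barcodes 0 of 1353, for which the upper limit is 0.272% by Clopper-Pearson and 0.222% when 3 counts are set against the total. A UMI of WPRE was present in 32.8% of members and 40.1% of granulocyte barcodes, at median depths of 17496 and 13927 UMIs, and in 6.75% and 11.96% after thinning. The share in members was thus at or below that in granulocyte barcodes, and the source of these UMIs was not tested. The sequence of tdTomato was seen as 4 UMIs in members, that of EGFP as 3 and that of Cre as 0.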

How the data were processed

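Cells of 3 mice were pooled and sequenced on a 10x droplet platform. The deposited values were raw UMI counts per gene and barcode, which the authors made on mm10 and on a second reference of exogenous RNAs per the series design, with Cell Ranger as release 3.1.0. The submitters' processing notes also name Seurat 3. Counts of 31053 genes in 12564 barcodes, and those of the exogenous RNAs, were the values used. The 8 labelled samples form 1 group and could not be told apart among the barcodes, so no test was possible.

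The filter kept barcodes in which 1600 or more genes were seen and mitochondrial UMIs made up no more than 20%. Thresholds of the classes are those given above. CPM was summed UMIs over the total of a class. Intervals were exact Poisson, conditional binomial or Clopper-Pearson at 95%, and a count under 3 in the lower group was set to 3 for ranking and for fold limits. UMIs share barcodes and cells share 1 pool, so intervals leave out variation between cells and mice, and depth per cell limits every share of cells.

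A gene was compared with at least 50 UMIs over both classes and UMIs in at least 10% of cells of the higher. Named were, per comparison, the 10 highest and 10 lowest ratios with no more than 50% of UMIs in 1 cell, 15 variable genes (mean of at least 0.2 UMIs after thinning to 3000 UMIs, no more than 10% in 1 cell), the 8 most and least similar genes to Ucma and Pth1r, and genes of 21 lists (427 of 431 genes found). The members, lists and 15 marker lists were chosen with earlier results of these data known. Thinning was drawn 100 times for shares of cells and 20 times for variability. Coordinates are those of GENCODE M21 (GRCm38), which held 31011 of the gene identifiers. Promoter windows were matched by symbol, and 6 of the 10 leading cycling genes had a window. Scrublet over all barcodes called 445 doublets (3.54%), among them 3 members, which were kept. The steps were tested on simulated data. Python 3.11.15, numpy 2.4.6, scipy 1.17.1, pandas 2.3.3, scanpy 1.11.5 and matplotlib 3.10.9 were used. Alternatives changed the gene, mitochondrial, Col2a1, Col10a1 with Ihh, and Prg4 thresholds but not that on type IX collagen, the minimum of UMIs per gene, the reference, the weight of cells and the doublets kept.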

Additional observations from a re-analysis of the deposited data

How the results depend on the processing

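No value had a test, and an alternative counted as changing a value when it moved it beyond its counting interval or a count of genes by over 1.5 times. Over all alternatives 130 values of the comparisons were within that limit and 25 were not, and of single genes 943, 74 and 3 stayed, moved or turned sign. The 3 that turned were those of Mpo without members that held a Ptprc UMI, at −0.057, −0.66 and −0.98 against Col10a1/Ihh chondrocytes, Prg4 chondrocytes and other members. The log2 ratio of Mmp14 to all other barcodes, 1.88, was 2.19 with a floor of 1000 genes and 0.70 against barcodes without Ptprc. That of Pth1r, 2.12, was 2.45 and 0.50 under the same settings, 2.00 with Col10a1 and Ihh under 2 UMIs, 2.24 without members that held Ptprc, 1.74 in cells of at least 10000 UMIs, 2.96 with each cell weighing the same and 2.32 without barcodes rich in blood-cell RNA. Against barcodes without Ptprc, 410 genes were 4-fold higher and 605 lower. With a minimum of 20 UMIs per gene, 578 genes were lower than in Col10a1/Ihh chondrocytes, 906 lower than in Prg4 chondrocytes, and 1023 higher and 541 lower in cycling members. With a minimum of 200 UMIs, 690 genes were higher than in all others, 303 higher and 163 lower than in Col10a1/Ihh chondrocytes, 355 and 165 than in Prg4 chondrocytes, and 119 and 106 in cycling members. These minimums change how many genes are compared. Among members of at least 20000 UMIs, 160 genes were lower in cycling cells, of which 82 were among the 297 lower over all members. The cycling share was 9.85% after thinning. The thinned share with at least 1 WPRE UMI, 6.75%, was set against the 0.538% with more than 14, which is another measure. The like share before thinning was 32.8%. Otherwise the cause was not tested. The settings without blood-rich barcodes and with members of at least 20000 UMIs were chosen after seeing the data.

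No paired analysis was possible because the 8 samples form 1 group and the barcodes carry no sample. Leaving out a replicate was not possible for the same reason. Genes with few UMIs, such as Pthlh, Gli1 and Gli2, were limited by depth, and differences between mice were not measurable.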

Other observations

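The counts of signalling and other genes below are to be read against the shares over all genes compared. These were 11.4% at least 4-fold higher and 9.89% lower in members than in all other barcodes, 14.2% at least 2-fold higher and 5.09% lower than in Col10a1/Ihh chondrocytes, and 13.6% higher and 7.63% lower than in Prg4 chondrocytes. Of the Wnt list, 7 of 11 genes were at least 4-fold higher in members than in all other barcodes, 6 of 10 at least 2-fold higher and 2 lower than in Col10a1/Ihh chondrocytes, and 3 of 9 higher and 3 lower than in Prg4 chondrocytes. Notum, a secreted enzyme that inactivates Wnt ligands, was seen in 81 members, from 0 to 928 CPM, and in 0 of 43 Col10a1/Ihh chondrocytes, at least 29.1-fold higher. Lef1, a transcription factor of the Wnt pathway, was seen in 103 members at 78.7 CPM, with a log2 ratio of 3.65 [2.71 to 4.79] to Col10a1/Ihh and 3.96 [2.40 to 6.24] to Prg4 chondrocytes. Wnt4, a ligand, was at −0.08 [−0.30 to 0.14] and 3.57 [2.59 to 4.79].

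Of the list of BMP, GDF and TGF-beta genes, 6 of 18 were 4-fold higher than in all others, 5 of 18 were 2-fold higher and 3 lower than in Col10a1/Ihh chondrocytes, and 4 of 19 higher and 6 lower than in Prg4 chondrocytes. Bmp7, a ligand, was seen in 114 members, with ratios of 2.82 [2.02 to 3.75] and 3.66 [2.10 to 5.95] to these classes, and Gdf10 in 95, with 1.74 [1.19 to 2.34] and 0.51 [−0.04 to 1.12]. Of the FGF list, 3 of 6 genes were 4-fold higher than in all others, 1 was higher and 1 lower than in Col10a1/Ihh chondrocytes, and 0 were higher and 4 lower than in Prg4 chondrocytes, among them the receptor Fgfr2 at −2.58 [−3.08 to −2.07] and Dusp6, a feedback phosphatase of FGF signalling, at −1.54 [−2.35 to −0.67]. Of the IGF list, 3 of 7 were 4-fold higher than in all others, 3 of 7 higher than in Col10a1/Ihh chondrocytes and 1 of 8 higher than in Prg4 chondrocytes, with 1, 1 and 3 lower. A count of 1 gene in lists this short does not set a list apart from all genes. Igf1 was among the higher genes in each. Its 233 UMIs lay in 44 members.

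Of the matrix proteases and inhibitors, 4 of 12, 4 of 11 and 5 of 9 genes were higher and 1, 3 and 1 lower in the same comparisons. Mmp2, a gelatinase that MMP14 is known to activate, was seen in 115 members at 70.8 CPM, with 1.86 [1.30 to 2.48] to Col10a1/Ihh and 1.39 [0.67 to 2.22] to Prg4 chondrocytes. Timp3, an inhibitor, was at −2.01 [−2.10 to −1.91] and −1.42 [−1.55 to −1.28]. Of the hypoxia and glycolysis genes, 3 of 28, 3 of 26 and 1 of 26 were higher and 1, 3 and 3 lower, so that the list does not stand above the shares over all genes on the higher side. Of the integrins and surface proteins, 5 of 16, 4 of 17 and 2 of 17 were higher and 0, 2 and 4 lower. Trpv4, a calcium channel of cartilage, was seen in 151 members, at 4.43 [4.24 to 4.62] to all others. Of the cyclins and inhibitors, 2 of 21, 6 of 17 and 7 of 14 were higher and 2, 2 and 3 lower.

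The immediate-early and heat-shock genes, which dissociation of a tissue can raise, summed to between 1246 and 66134 CPM per member with a median of 14431, against medians of 16240 in Col10a1/Ihh and 13673 in Prg4 chondrocytes. Of them, 8 of 25 were 4-fold higher than in all others, 1 of 26 higher and 0 lower than in Col10a1/Ihh chondrocytes, and 5 of 26 higher and 3 lower than in Prg4 chondrocytes.

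In cycling against other members, where 7.53% of all genes compared were higher and 4.62% lower, 0 of 9 Wnt genes were higher and 4 lower, 0 of 17 and 2 of the BMP list, 0 of 5 and 2 of the FGF list, 1 of 6 and 1 of the IGF list, 0 of 8 and 3 of the proteases and inhibitors, 0 of 25 and 2 of the hypoxia genes, 0 of 17 and 3 of the surface proteins, 4 of 13 and 1 of the cyclins and inhibitors, 0 of 26 and 1 of the immediate-early genes and 0 of 14 and 8 of the articular genes, with a median log2 ratio of −1.73 for the last. Among members of at least 20000 UMIs the genes lower were 1 of 7 of the Wnt list, 3 of 14 of the BMP list, 0 of 3 of the FGF list, 1 of 4 of the IGF list, 3 of 8 of the proteases, 0 of 25 of the hypoxia genes, 2 of 13 of the surface proteins, 2 of 13 of the cyclins, 2 of 24 of the immediate-early genes and 3 of 9 of the articular genes, whose median was −0.56. The share of all genes lower at that depth was not counted, so these deep counts are not set against all genes. Over all members Gli1 was the hedgehog gene higher in cycling cells, at 27.0 against 12.2 CPM, a ratio of 1.14 [0.39 to 1.89], with 64 UMIs in all. Without barcodes rich in blood-cell RNA, Gli1 was at 25.1 against 12.8 CPM, a ratio of 0.97 [0.16 to 1.77], just under 2-fold, and 0 of 9 genes of the PTHrP and hedgehog list were counted as higher. Among members of at least 20000 UMIs it was at 1.32 [0.29 to 2.43] with 40 UMIs, under the minimum for a count.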
